A study of Brassica rapa subsp. pekinensis with 6 samples.

Results

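Seed storage protein mRNAs and germin-like protein mRNAs were examined in germinated seeds of Chinese cabbage (Brassica rapa) with and without vernalization. The members were the reference mRNAs whose description in the authors' table contained cruciferin, napin, 12S, 2S seed storage, 2S storage, vicilin, legumin, globulin, germin-like or cupin, in any case of letters. This rule found 60 of 33354 reference mRNAs, in 57 assembled genes. They were 10 napins (2S albumins), 5 cruciferins (12S globulins), 5 vicilin-like storage proteins, 12 basic 7S globulins, 26 germin-like proteins and 2 sinapine esterases. Sinapine esterases were found only because their name holds the letters of napin. They are enzymes and not storage proteins, and they were described apart after the table was seen. No description contained cupin, legumin or 2S storage, so 0 mRNAs formed a group of other cupins.

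Seed of 1 double haploid line, 'FT', was used throughout. It was germinated in dishes on wet filter paper, and 1 dish of seeds made 1 biological repeat. The non-vernalized samples (Nor) then stayed at room temperature in the dark for about 48 h, and the vernalized samples (Ver) were kept cold at 4 °C, also dark, for 25 days. The seeds were matched for size at sampling and not for age. The groups differed in temperature and in age, which cannot be told apart here. RNA was taken from whole germinated seeds, so fewer cells of a type and less RNA per cell cannot be told apart either.

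Storage proteins are made in the maturing embryo, packed into protein storage vacuoles and broken down after germination to feed the seedling. In crucifers the main ones are the napins, which are small albumins, and the cruciferins, which share the cupin fold with the vicilins. Transcription of their genes in Arabidopsis depends on abscisic acid and on the regulators ABI3 and ABI5. Germin-like proteins are manganese-binding glycoproteins of the cell wall with a single cupin domain. Some of them release hydrogen peroxide through oxalate oxidase or superoxide dismutase activity. Basic 7S globulins are named after a soybean seed protein, but their sequence family is that of the pepsin-like aspartic proteases and not of the cupins.

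The estimated counts of a library totalled between 83976912 and 104903263. mRNA levels are given as FPKM, that is, fragments scaled by transcript length and library size, so that levels of different genes can be compared. Ver was compared with Nor on the estimated counts with edgeR (quasi-likelihood F test), and log2 fold changes (log2FC) are given with their standard error (SE). The study's thresholds were used, so an mRNA was called upregulated or downregulated in Ver when its log2FC exceeded 1 in size and its unadjusted p was 0.05 or less. By this rule 8.42% of the 26531 tested mRNAs were called higher and 9.39% lower. Adjusted p-values are Benjamini-Hochberg values over the 49351 transcripts tested or, for counts summed over an assembled gene, over the assembled genes tested. Where every Ver library lay above or below every Nor library, the exact two-sided permutation test gave p = 0.1, and no smaller p is possible with 3 libraries a group.

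Annotated mRNAs of napins, cruciferins and a vicilin-like protein were far more abundant in the Ver samples. Assembled isoforms of the same genes are not part of the sums given here. The FPKM summed over the 20 mRNAs of these 3 classes was 41.7 ± 1.57 in Nor and 868 ± 21.1 in Ver (SD, n = 3 each). By class, the sum went from 7.65 ± 0.478 to 264 ± 14.1 for the napins, from 12.5 ± 0.784 to 131 ± 2.25 for the cruciferins and from 21.5 ± 0.853 to 472 ± 6.36 for the vicilin-like mRNAs (SD, n = 3 each). The basic 7S globulins went the other way, from 140.3 ± 3.38 to 79.0 ± 0.672 (SD, n = 3 each). The germin-like sum was 973 ± 25.0 in Nor and 769 ± 19.9 in Ver (SD, n = 3 each). In each class the ranges of the Nor and Ver sums did not overlap. As a share of all estimated counts, napins, cruciferins and vicilin-like mRNAs together took between 0.00629% and 0.00675% in Nor and between 0.135% and 0.146% in Ver, so they were a small part of the library in both groups.

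**Figure D1:**
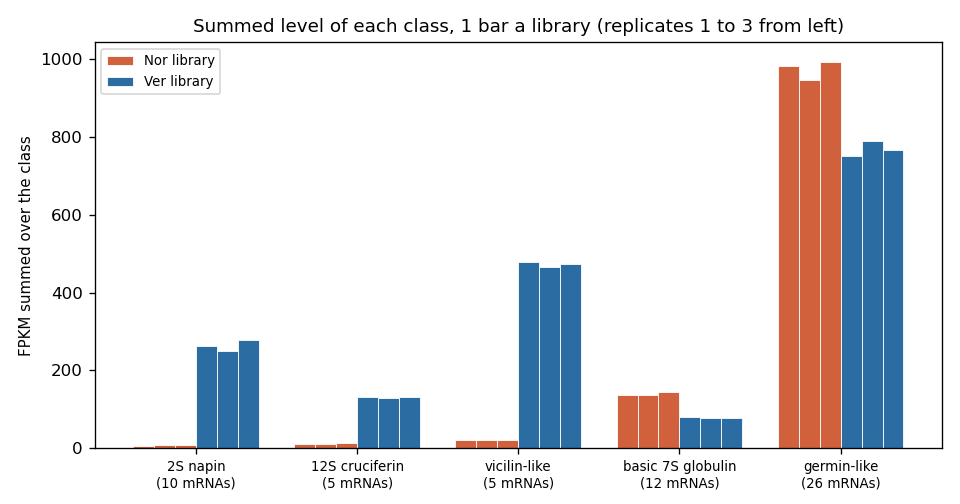
FPKM summed over the mRNAs of each class (vertical axis, linear from 0), with 1 bar a library in each group. The Ver bars of napins, cruciferins and vicilin-like mRNAs stand above all Nor bars, and those of basic 7S globulins and germin-like mRNAs stand below them.

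Of the 32 storage mRNAs, 26 passed the count filter, 9 were upregulated, 5 were downregulated and 12 were not called in Ver. Over all tested mRNAs the shares called higher and lower were 8.42% and 9.39%. The 9 upregulated mRNAs were 5 napins, 3 cruciferins and 1 vicilin-like mRNA, and the 5 downregulated mRNAs were 3 basic 7S globulins, 1 napin and 1 cruciferin. With the adjusted p held to 0.05 instead, 7 and 4 calls were left, against 6.75% and 7.7% of all tested mRNAs. The median log2FC was 2.14 over the 16 tested mRNAs of napins, cruciferins and vicilin-like proteins and -1.10 over the 10 tested basic 7S globulins, against -0.01 over all tested mRNAs. Without Ver 3 the number of downregulated storage mRNAs was 8.

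The most abundant storage mRNA was BraA01g031520.3C (A01, 21411285 to 21413254 of B. rapa v3.0), described as vicilin-like seed storage protein At3g22640. Its level was 15.5, 15.3 and 15.6 FPKM in the Nor libraries, in the order of their numbers as in all such values here, and 474, 461 and 469 FPKM in the Ver libraries. The Ver libraries lay close together and about 30.3-fold above the Nor libraries. Its log2FC was 4.92 (SE 0.02, edgeR adjusted p = 4.45e-07), and it lay between 4.84 and 4.95 in the alternative analyses. Among all 33354 mRNAs ordered by FPKM, it ranked between 3531 and 3595 in the Nor libraries and between 46 and 48 in the Ver libraries. In Ver it carried 99.1% of the summed level of the vicilin-like class, which holds annotated mRNAs only and no assembled isoforms.

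The other annotated vicilin-like mRNAs were either not called or not tested. BraA02g040030.3C (At2g18540) had 5.21, 7.10 and 5.36 FPKM in Nor and 3.62, 3.82 and 4.32 FPKM in Ver, without overlap but below the fold threshold (log2FC -0.59, SE 0.17). BraA05g040060.3C, with the same description, had between 0.134 and 0.273 FPKM in Nor and between 0.0872 and 0.235 FPKM in Ver, and the groups overlapped. BraA03g060150.3C (At4g36700) was found in Nor 3 only, with 6 counts. BraA07g018860.3C (At2g28490) had 199 counts in Ver 3 and 0 in the other 5 libraries and was not tested. An assembled isoform of the same gene, looked up after its values were seen, carried nearly all of its reads. That isoform had 1.54, 1.60 and 1.74 FPKM in Nor and 37.2, 37.3 and 37.5 FPKM in Ver. With all transcripts summed, the At2g28490 gene was higher in Ver by a log2FC of 4.54 (SE 0.05, edgeR adjusted p = 3.26e-11). A second vicilin-like gene therefore rose in Ver when its annotated and assembled transcripts were counted together.

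Among the 5 cruciferins, 3 were upregulated and 1 was downregulated in Ver, against 8.42% and 9.39% of all tested mRNAs, and 1 was not tested. The highest was BraA06g043320.3C (cruciferin BnC1; A06, 28309301 to 28311295), with 7.91, 8.09 and 9.18 FPKM in Nor and 55.8, 55.9 and 56.4 FPKM in Ver. Its log2FC was 2.74 (SE 0.07, edgeR adjusted p = 1.69e-05). It was the most abundant cruciferin in both groups, but its rise was the smallest of the 3.

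BraA01g008970.3C (cruciferin CRU1; A01, 4442511 to 4444507) had 2.94, 3.17 and 3.36 FPKM in Nor and 53.3, 51.4 and 53.3 FPKM in Ver. It reached nearly the level of BnC1 in Ver from a lower level in Nor. Its log2FC was 4.06 (SE 0.06, edgeR adjusted p = 4.6e-06), and an assembled isoform of its gene moved in the same direction by 4.40 (SE 0.42). BraA08g018960.3C (cruciferin PGCRURSE5-like; A08, 14899952 to 14903384) went from 0.476, 0.367 and 0.501 FPKM in Nor to 22.5, 21.1 and 22.8 FPKM in Ver. This was the largest change among the cruciferins, with a log2FC of 5.61 (SE 0.15, edgeR adjusted p = 2.38e-05). The means of the 3 mRNAs lay between 0.448 and 8.39 FPKM in Nor and between 22.1 and 56.0 FPKM in Ver.

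The remaining cruciferins were close to the limit of detection. BraA10g002460.3C (cruciferin CRU4; A10, 1265114 to 1267444) had 108, 85 and 66 counts in Nor and 0, 0 and 13 counts in Ver. It was called downregulated (log2FC -4.34, SE 1.52, edgeR unadjusted p = 0.0337 and adjusted p = 0.0965), and the call was lost in 8 of 17 alternative analyses, among them those that left out any library other than Ver 3. BraA09g065170.3C (12S seed storage protein CRD) had at most 15 counts in any library and was not tested. Each cruciferin mRNA had 4 exons and between 1338 and 1503 bases.

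**Figure D2:**
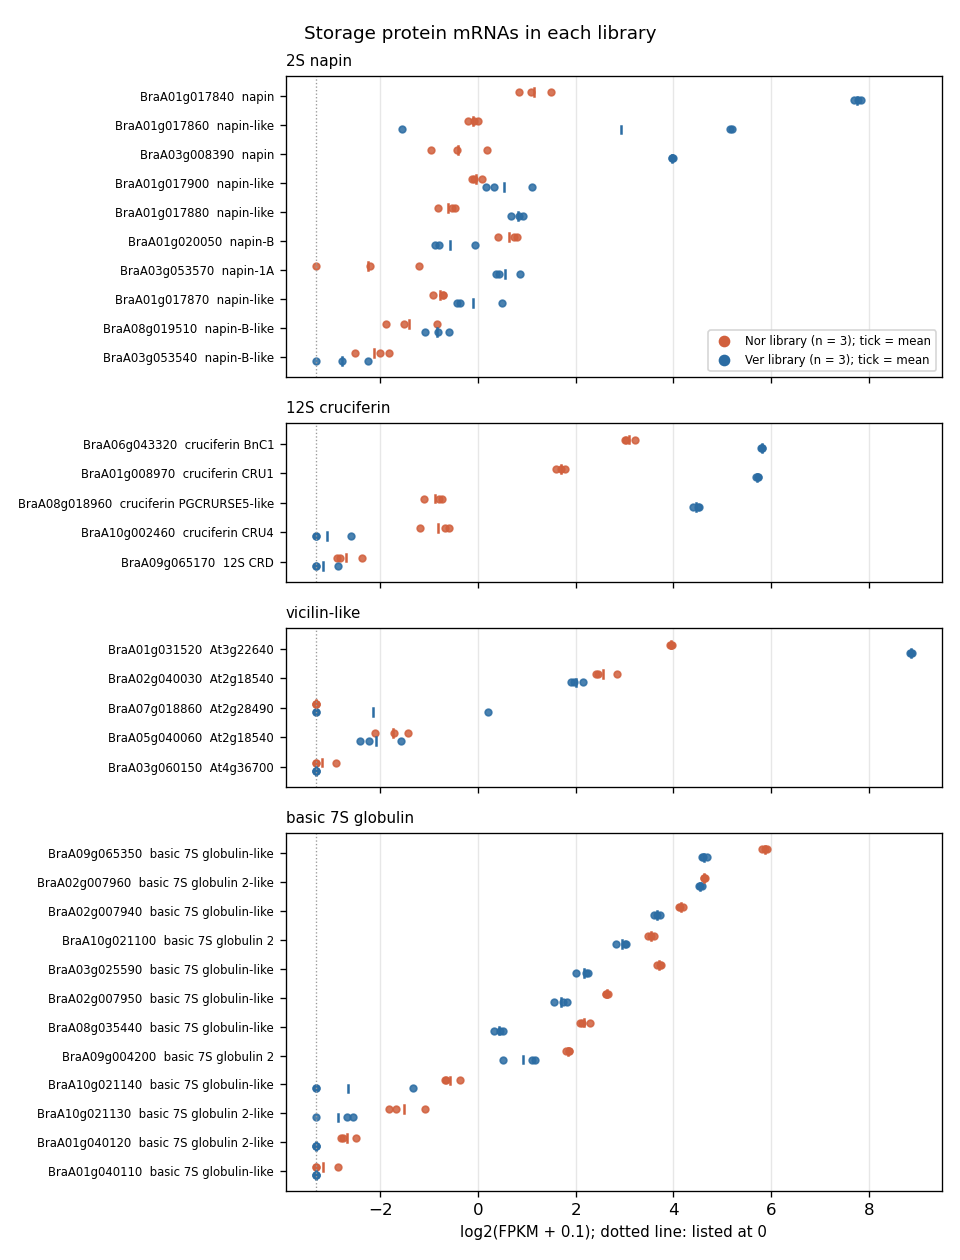
Levels of the 32 storage mRNAs, as log2(FPKM + 0.1) on the horizontal axis, with 1 point a library (3 Nor above, 3 Ver below in each row), a tick at the mean of the 3 log2 values and a dotted line for values listed at 0. The main napin, cruciferin and vicilin-like mRNAs have their Ver points to the right, while the basic 7S globulins have theirs to the left.

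All 10 napin mRNAs had a single exon and between 477 and 555 bases. BraA01g017840.3C (napin; A01, 9468900 to 9469442) had 1.68, 2.73 and 2.03 FPKM in Nor and 206, 228 and 221 FPKM in Ver. Its rise of 6.66 on the log2 scale was the largest of the storage mRNAs (SE 0.23, edgeR adjusted p = 4.47e-05). It carried 82.5% of the summed napin level in Ver and 28.1% in Nor. In Ver it ranked between 163 and 186 among all mRNAs, against 11478 to 13811 in Nor.

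BraA03g008390.3C (napin; A03, 3594970 to 3595524) lay apart from the other napins on A03. It had 0.639, 0.412 and 1.03 FPKM in Nor and 15.7, 15.6 and 15.8 FPKM in Ver, a log2FC of 4.47 (SE 0.38, edgeR adjusted p = 0.000948). BraA03g053570.3C (napin-1A; A03, 27717644 to 27718120) had 8, 0 and 23 counts in Nor and 73, 78 and 111 counts in Ver. It was called upregulated at few counts (log2FC 3.11, SE 1.19, edgeR unadjusted p = 0.0454 and adjusted p = 0.12), and the call was lost without Nor 1, Ver 1, Ver 2 or Ver 3. BraA01g020050.3C (napin-B; A01, 10769248 to 10769787) went the other way, with 1.63, 1.57 and 1.22 FPKM in Nor and 0.856, 0.442 and 0.479 FPKM in Ver. It was the only downregulated napin (log2FC -1.30, SE 0.34, edgeR adjusted p = 0.0423). Its call was lost with limma on log2(FPKM + 1), which gave -0.64. The remaining napin-B-like mRNAs had at most 38 counts in any library, and BraA08g019510.3C changed by 0.64 (SE 0.44) while BraA03g053540.3C was not tested.

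A run of 5 napin genes lay on A01 between 9468900 and 9503378, all on the plus strand and with 0 other reference mRNAs of the table between them. The assembly placed the first 3 in 1 gene and the last 2 in another. How reads were divided among neighbouring napins was not tested. BraA01g017860.3C (napin-like; A01, 9475848 to 9476390) had 67, 49 and 64 counts in Nor and 2472, 17 and 2706 counts in Ver. Ver 2 thus lay below the Nor libraries in this mRNA while the other Ver libraries lay far above them. It was called upregulated (log2FC 4.84, SE 1.65, edgeR adjusted p = 0.0896), but the groups overlapped. Without Ver 2 the log2FC was 5.42 and the call was kept, and the call was lost without any other library.

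The first and most abundant napin of the run did not show this gap, with 14266, 16166 and 16281 counts in Ver. BraA01g017870.3C had 45, 93 and 50 counts in Ver and 32, 32 and 39 in Nor, a log2FC of 0.85 (SE 0.37) that was not called. Summed over the assembled gene of these 3 napins, the counts were 225, 253 and 256 in Nor and 16783, 16276 and 19037 in Ver. The sum was higher in each Ver library, with a log2FC of 6.14 (SE 0.09, edgeR adjusted p = 1.51e-10).

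At the far end of the run, BraA01g017880.3C had 36, 38 and 48 counts in Nor and 105, 121 and 135 counts in Ver and was upregulated (log2FC 1.54, SE 0.22, edgeR adjusted p = 0.00615). BraA01g017900.3C had 0.820, 0.840 and 0.956 FPKM in Nor and 1.02, 2.06 and 1.15 FPKM in Ver and was not called (0.69, SE 0.34). The 5 neighbouring napins thus had Ver means between 0.878 and 218 FPKM and Nor means between 0.482 and 2.15 FPKM. Of the 9 tested napins, 6 had all Ver libraries above all Nor libraries and 1 had all Nor libraries above, against 25.6% and 27.1% of all tested mRNAs. Among the 6, BraA03g053570.3C passed the count filter only through its Ver libraries.

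**Figure D3:**
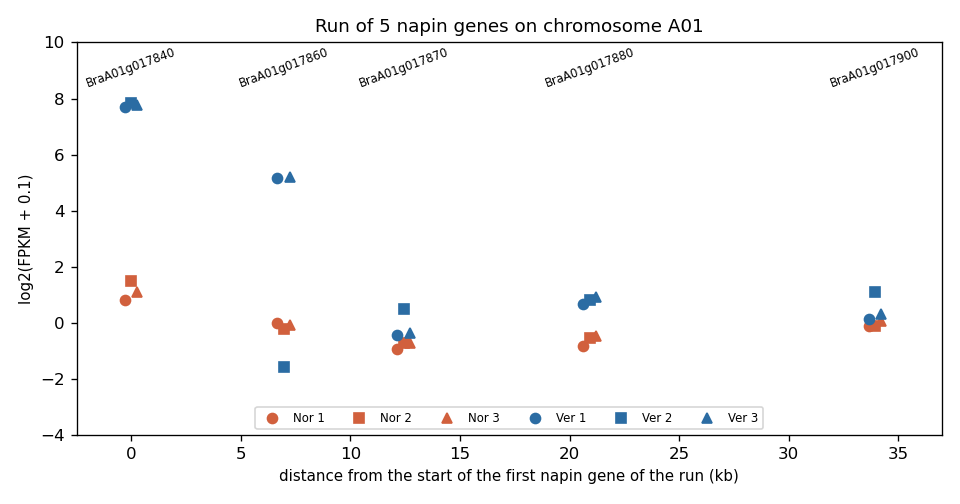
Level of the 5 napin mRNAs of the run on A01, as log2(FPKM + 0.1), against the distance of each gene's start from that of the first napin in kb, with 1 symbol for each library. The first gene is high in Ver 1, Ver 2 and Ver 3, and the second is high in Ver 1 and Ver 3 but has its lowest value in Ver 2.

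All 10 tested basic 7S globulins had a negative log2FC. In 10 of 10 every Nor library lay above every Ver library, against 27.1% of all tested mRNAs. BraA10g021130.3C (37, 54 and 32 counts in Nor, 9, 12 and 0 in Ver) passed the count filter only through its Nor libraries. The same holds for BraA10g021140.3C (94, 99 and 93 in Nor, 0, 50 and 0 in Ver). Their direction was thus not independent of the filter, and their log2FCs were the most negative of the class. Only 3 of the 10 passed the fold and p thresholds, against 9.39% of all tested mRNAs called lower. The most abundant was BraA09g065350.3C (basic 7S globulin-like; A09, 44612991 to 44614289), with 58.4, 56.3 and 60.5 FPKM in Nor and 25.6, 24.1 and 24.3 FPKM in Ver. It was downregulated with a log2FC of -1.25 (SE 0.04, edgeR adjusted p = 5.14e-05).

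BraA03g025590.3C (A03, 12635357 to 12636592) had 12.5, 13.2 and 13.3 FPKM in Nor and 3.94, 4.67 and 4.56 FPKM in Ver, a log2FC of -1.57 (SE 0.09, edgeR adjusted p = 0.000214). BraA08g035440.3C (A08, 22751752 to 22753119) had 4.16, 4.28 and 4.80 FPKM in Nor and 1.32, 1.26 and 1.16 FPKM in Ver, a log2FC of -1.82 (SE 0.12, edgeR adjusted p = 0.00035). Each of these 3 calls was kept in 18 of 18 alternative analyses.

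Neighbouring basic 7S globulin genes differed from each other. On A02, BraA02g007940.3C, BraA02g007950.3C and BraA02g007960.3C lie between 3767106 and 3775065. BraA02g007960.3C had 24.6, 24.7 and 25.1 FPKM in Nor and 23.3, 23.9 and 22.9 FPKM in Ver, a log2FC of -0.09 (SE 0.03). It was the second most abundant of the class and nearly as high in Ver as in Nor. BraA02g007950.3C, only 187 bases away from it, had 6.22, 6.05 and 6.04 FPKM in Nor and 3.22, 2.83 and 3.44 FPKM in Ver (-0.95, SE 0.11), just short of the fold threshold. BraA02g007940.3C had 17.2, 17.6 and 18.2 FPKM in Nor and 13.1, 12.1 and 12.5 FPKM in Ver (-0.49, SE 0.05).

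On A10, BraA10g021100.3C had 11.5 ± 0.473 FPKM in Nor and 7.67 ± 0.556 FPKM in Ver (SD, n = 3 each), without overlap (log2FC -0.59, SE 0.08). Its neighbours BraA10g021130.3C and BraA10g021140.3C were low, at 0.257 and 0.578 FPKM on average in Nor, and their fold changes of -2.56 and -2.52 had standard errors of 1.13 and 1.82 and were not called. Summed over their assembled genes, their fold changes were -2.58 (SE 0.28) and -1.78 (SE 0.29), and both sums passed the thresholds. The first of these genes also holds the reads of another reference mRNA, BraA10g021120.3C, which carried most of the gene's counts in 4 of 6 libraries. BraA09g004200.3C had 3.39, 3.53 and 3.53 FPKM in Nor and 2.16, 1.32 and 2.06 FPKM in Ver (-0.92, SE 0.21). The untested members BraA01g040110.3C and BraA01g040120.3C had at most 14 counts in any library and 0 counts in the Ver libraries.

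Germin-like mRNAs were abundant in both groups. Of 26 members, 24 were tested, 4 were upregulated, 6 were downregulated and 14 were not called. The number upregulated was 2 with limma on log2(FPKM + 1), with a filter at a mean CPM of 1 and with a replicate block. Over all tested mRNAs the shares were 8.42% and 9.39%. With the adjusted p held to 0.05 instead, 3 and 4 calls were left, against 6.75% and 7.7% of all tested mRNAs. The median log2FC was -0.27. In 8 of 24 every Ver library lay above every Nor library and in 10 of 24 every Nor library lay above, against 25.6% and 27.1% of all tested mRNAs. The germin-like mRNAs thus moved in both directions.

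A pair of mRNAs made up most of the germin-like level. BraA02g008980.3C (germin-like protein 1; A02, 4225188 to 4225823) had 469, 440.2 and 470.4 FPKM in Nor and 293, 315 and 309 FPKM in Ver. It ranked between 43 and 53 among all mRNAs in Nor and between 94 and 109 in Ver. It was lower in every Ver library, with a log2FC of -0.59 (SE 0.04, edgeR adjusted p = 0.000578) that did not reach the fold threshold. BraA03g009710.3C (germin-like protein subfamily 3 member 3; A03, 4171327 to 4171962) had 292, 279 and 288 FPKM in Nor and 238, 260.3 and 239.5 FPKM in Ver. Its log2FC was -0.22 (SE 0.05, edgeR adjusted p = 0.0198). These mRNAs together held 76.7% of the germin-like level in Nor and 71.7% in Ver.

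The germin-like protein 1 description covers 5 mRNAs, which did not move together. BraA10g020020.3C (A10, 14619052 to 14619687) had 28.2, 30.5 and 31.2 FPKM in Nor and 4.00, 3.55 and 2.88 FPKM in Ver. It was downregulated with a log2FC of -3.11 (SE 0.15, edgeR adjusted p = 0.000123). BraA07g029080.3C (A07, 21502490 to 21503113) was higher in Ver, with 19.2, 20.4 and 20.5 FPKM in Nor and 37.7, 39.0 and 36.7 FPKM in Ver, but its log2FC of 0.91 (SE 0.05) stayed under the threshold. BraA07g036960.3C had 34.8, 36.3 and 35.2 FPKM in Nor and 41.3, 42.6 and 40.8 FPKM in Ver (0.23, SE 0.04). BraA02g009000.3C was low and overlapped between the groups, at 0.595 ± 0.269 FPKM in Nor and 0.476 ± 0.0317 FPKM in Ver (SD, n = 3 each).

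Of 6 tested members of subfamily 1, 3 were upregulated and 1 was downregulated, against 8.42% and 9.39% of all tested mRNAs. BraA07g020230.3C (subfamily 1 member 13; A07, 16856241 to 16857000) had 8.16, 8.03 and 8.67 FPKM in Nor and 52.8, 50.5 and 54.2 FPKM in Ver. It was upregulated with a log2FC of 2.66 (SE 0.05, edgeR adjusted p = 1.05e-05) and became the third most abundant germin-like mRNA in Ver. BraA04g011460.3C (subfamily 1 member 13; A04, 9099279 to 9100053) had 0.693, 0.517 and 0.821 FPKM in Nor and 2.85, 2.22 and 2.51 FPKM in Ver, a log2FC of 1.88 (SE 0.25, edgeR adjusted p = 0.0047). Both mRNAs with the member 13 description therefore rose in Ver, from mean levels of 8.29 and 0.677 FPKM in Nor.

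BraA09g019180.3C (subfamily 1 member 11; A09, 12281541 to 12282176) had 0, 0 and 0 counts in Nor and 23, 35 and 34 counts in Ver. Against a floor of 3 counts in each Nor library it was at least 10.03-fold higher in Ver (edgeR adjusted p = 0.0058). Most reads of this gene lay on an assembled isoform, with 0 counts in Nor and 200, 205 and 126 counts in Ver, and the gene as a whole was at least 68.5-fold higher. The annotated mRNA was not called with a replicate block (log2FC 7.92, fitted against 0 counts) or with limma on log2(FPKM + 1), which gave 0.52. BraA07g019740.3C, with the same description, had 0, 8 and 0 counts in Nor and 11, 26 and 12 counts in Ver and was not called.

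The opposite direction occurred in the same subfamily. BraA01g042240.3C (subfamily 1 member 7; A01, 28226746 to 28228407) had 120, 121 and 129 counts in Nor and 26, 12 and 0 counts in Ver. It was called downregulated (log2FC -3.26, SE 1.26, edgeR unadjusted p = 0.0466 and adjusted p = 0.123), and the call was lost without Nor 1, Nor 2, Nor 3 or Ver 2. Its neighbour BraA01g042250.3C (subfamily 2 member 3), 1117 bases away on the other strand, had between 12 and 30 counts in all libraries and overlapped between the groups. BraA08g010730.3C (subfamily 1 member 8) had 1.08 ± 0.521 FPKM in Nor and 1.24 ± 0.0376 FPKM in Ver (SD, n = 3 each) and was not called. The untested BraA02g041020.3C and BraA04g014890.3C had 0 counts in the Nor libraries and at most 10 in a Ver library.

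In subfamily 2, 2 of 8 tested members were downregulated and 0 were upregulated, against 9.39% and 8.42% of all tested mRNAs. BraA10g001070.3C (subfamily 2 member 2; A10, 566474 to 567616) had 18.0, 18.8 and 18.5 FPKM in Nor and 7.07, 6.20 and 6.66 FPKM in Ver, a log2FC of -1.47 (SE 0.08, edgeR adjusted p = 0.000167). BraA09g051530.3C (subfamily 2 member 4; A09, 37908348 to 37909123) had 9.92, 9.37 and 10.3 FPKM in Nor and 3.64, 4.62 and 4.05 FPKM in Ver, a log2FC of -1.26 (SE 0.12, edgeR adjusted p = 0.00161). For both the Nor and Ver ranges were well apart. The subfamily 2 member 1 description covers BraA08g032550.3C, with 66.7, 67.1 and 70.9 FPKM in Nor and 46.2, 40.3 and 43.1 FPKM in Ver (-0.66, SE 0.06), and BraA09g062330.3C, with 772, 592 and 852 counts in Nor and 729, 837 and 838 counts in Ver (log2FC 0.11, SE 0.10). The former was lower in every Ver library and the latter overlapped. The remaining subfamily 2 members were below 0.5 FPKM in every library and were not called.

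BraA09g056940.3C (subfamily T member 2; A09, 40648554 to 40649198) had 17.6, 18.1 and 19.9 FPKM in Nor and 5.08, 5.43 and 6.48 FPKM in Ver. It was downregulated with a log2FC of -1.71 (SE 0.12, edgeR adjusted p = 0.000474). In subfamily 3, BraA01g040510.3C (member 2) had 3.24, 2.94 and 2.68 FPKM in Nor and 5.66, 5.14 and 5.62 FPKM in Ver (0.89, SE 0.10) and did not reach the fold threshold. BraA03g044770.3C (member 4) had 13, 7 and 15 counts in Nor and 35, 44 and 16 counts in Ver. It was called upregulated at these few counts (log2FC 1.45, SE 0.51, edgeR unadjusted p = 0.0343 and adjusted p = 0.0978), and the call was lost without any library other than Ver 3. BraA02g008990.3C (member 3), with 37, 31 and 15 counts in Nor and 6, 8 and 12 counts in Ver, was called downregulated (-1.70, SE 0.51, edgeR unadjusted p = 0.0187 and adjusted p = 0.0624), and this call was lost without Nor 1, Nor 2, Ver 1 or Ver 2. It lies 1968 bases from BraA02g008980.3C, the most abundant germin-like mRNA, while its own mean was 0.320 FPKM in Nor.

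**Figure D4:**
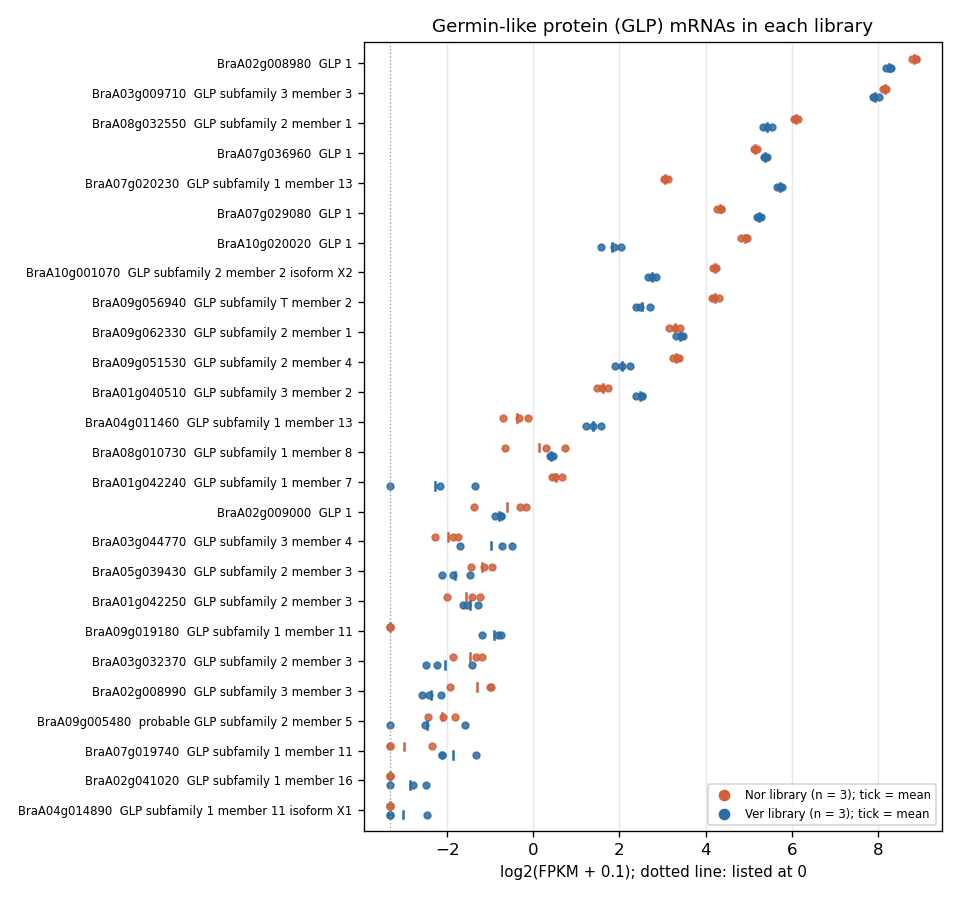
Levels of the 26 germin-like mRNAs (GLP) as log2(FPKM + 0.1) on the horizontal axis, ordered by mean level, with 1 point a library (3 Nor above, 3 Ver below in each row), a tick at the mean of the 3 log2 values and a dotted line for values listed at 0. The 2 most abundant mRNAs have Ver points slightly to the left, and BraA07g020230 and BraA10g020020 stand out with Ver points far to the right and far to the left.

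Some terms of the authors' annotation were shared between the classes. The term nutrient reservoir activity was given to 10 of 10 napins, 5 of 5 cruciferins, 3 of 5 vicilin-like mRNAs and 26 of 26 germin-like mRNAs, of 88 mRNAs with this term in the whole table. All 10 napins, all 26 germin-like mRNAs and 4 of 12 basic 7S globulins were annotated to the extracellular region. All 5 cruciferins were annotated to the protein storage vacuole and to seed maturation, and 4 of 5 to response to abscisic acid. All 26 germin-like mRNAs were annotated to the apoplast and to manganese ion binding, 13 to oxalate decarboxylase activity, 7 to oxalate oxidase activity, 7 to response to cold and 7 to regulation of root development. Of the 12 basic 7S globulins, 5 were annotated to proteolysis and 5 to aspartic-type endopeptidase activity.

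The sinapine esterases, which cleave the choline ester of sinapic acid stored in crucifer seeds, are 2 mRNAs, of which 1 was downregulated. BraA07g011490.3C had 39.8, 37.4 and 42.5 FPKM in Nor and 16.9, 19.2 and 18.8 FPKM in Ver and was downregulated (log2FC -1.13, SE 0.07, edgeR adjusted p = 0.000374). Summed over the gene its log2FC was -0.96 (SE 0.04), which is short of the fold threshold. BraA08g024160.3C had 10.1, 11.3 and 9.54 FPKM in Nor and 10.4, 10.4 and 8.49 FPKM in Ver and overlapped between the groups.

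Genes that act with the storage proteins were described from lists of descriptions, beside the 8.42% of all tested mRNAs called higher. All 5 tonoplast aquaporins TIP3, which lie in the membrane of the protein storage vacuole, were upregulated, with log2FCs from 4.43 for BraA07g028850.3C to 5.44 for BraA09g057520.3C. Of 17 oleosins, which coat the oil bodies of the seed, 14 were tested and 14 were upregulated, with a median log2FC of 5.16. The summed FPKM of the TIP3 mRNAs lay between 6.94 and 8.83 in Nor and between 202 and 208 in Ver, and that of the oleosins between 20.3 and 23.2 in Nor and between 1046 and 1080.4 in Ver.

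Genes for the processing, control and breakdown of storage proteins are read against the 8.42% and 9.39% of all tested mRNAs called higher and lower. Of 9 tested mRNAs for vacuolar processing enzymes and vacuolar sorting receptors, 2 were upregulated and 1 was downregulated. With the adjusted p held to 0.05, 1 and 0 were left, against 6.75% and 7.7% of all tested mRNAs. Both called receptors overlapped between the groups. BraA03g042620.3C (receptor 3) had 781, 625 and 818 counts in Nor and 721, 2696 and 2675 counts in Ver, so Ver 1 lay within the Nor range. BraA09g043910.3C (receptor 1), called lower, had 2.88, 6.18 and 5.97 FPKM in Nor and 2.99, 1.71 and 1.77 FPKM in Ver. BraA09g012660.3C, the beta-isozyme of the vacuolar processing enzyme, which matures storage protein precursors in Arabidopsis seeds, had 3.69, 4.71 and 3.21 FPKM in Nor and 33.8, 27.3 and 31.2 FPKM in Ver (log2FC 2.99, SE 0.18, edgeR adjusted p = 0.000267). The gamma-isozyme BraA01g005100.3C was higher in each Ver library but short of the fold threshold (0.93, SE 0.03). Of 17 tested mRNAs named for regulators of seed maturation and their repressors, 2 were upregulated, 2 were downregulated and 13 were not called. The gene described as ABSCISIC ACID-INSENSITIVE 5, BraA05g009140.3C, rose from 2.60, 1.91 and 2.62 FPKM to 7.70, 7.56 and 7.90 FPKM (1.69, SE 0.15, edgeR adjusted p = 0.00109). BraA06g003820.3C (ABSCISIC ACID-INSENSITIVE 5-like protein 4) was also upregulated (1.20, SE 0.10, edgeR adjusted p = 0.000855). The downregulated mRNAs were BraA07g022550.3C (ABSCISIC ACID-INSENSITIVE 5-like protein 2, -1.28, SE 0.26, edgeR adjusted p = 0.0198) and BraA03g016240.3C (VAL1-like, -1.06, SE 0.36, edgeR adjusted p = 0.0914). VAL1 represses seed maturation genes in Arabidopsis seedlings. Another tested VAL1-like mRNA, BraA04g021660.3C, went the other way and was not called (0.25, SE 0.15). The VAL3 mRNA BraA01g012250.3C was not called either (-0.44, SE 0.29). BraA03g041270.3C (ABI3) had 0, 271 and 198 counts in Nor and 1131, 869 and 819 counts in Ver, but with this spread in Nor it was not called (2.51, SE 1.61, edgeR adjusted p = 0.326). Both mRNAs described as FUS3 were near 0 and were not tested. Of 24 tested mRNAs of the list for proteases of storage breakdown, 1 was upregulated and 2 were downregulated, with a median log2FC of 0.19. This list also caught aspartic proteinase Asp1 mRNAs by the letters of aspartic proteinase A, so it does not describe storage breakdown alone. Of 19 tested mRNAs for superoxide dismutases, their copper chaperones and respiratory burst oxidases, 3 were upregulated and 1 was downregulated.

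Markers of seed tissues were measured beside these results. Over all tested mRNAs, 8.42% were called higher and 9.39% lower. The summed level of 29 cotyledon or leaf mRNAs lay between 8050 and 8474 FPKM in Nor and between 15097 and 15361 FPKM in Ver, and 12 of 28 tested were upregulated and 2 downregulated. The 12 were all chlorophyll a-b binding proteins, and the 2 were small chains of Rubisco. Of these, BraA04g010970.3C had 2447, 2287 and 2638 FPKM in Nor and 807, 952 and 795 FPKM in Ver, and BraA07g019510.3C had 737, 765 and 738 FPKM in Nor and 295, 288 and 292 FPKM in Ver. The leaf markers thus went both ways. The 54 mRNAs of the root list summed to between 241 and 263 FPKM in Nor and between 273 and 296 FPKM in Ver. Many of them are scarecrow-like proteins, caught by the letters of SCARECROW, so the sum does not describe root markers alone. Of 50 tested, 1 was upregulated and 2 were downregulated, all of them Casparian strip membrane proteins. BraA10g024110.3C (log2FC -5.35, SE 1.55, edgeR adjusted p = 0.057) and BraA03g006790.3C (-2.72, SE 0.23) were lower. BraA05g009280.3C had 0 counts in the Nor libraries and 62, 52 and 104 counts in Ver. The 9 endosperm and seed coat mRNAs summed to between 64.2 and 65.3 FPKM in Nor and between 54.1 and 56.6 FPKM in Ver, with 2 of 6 tested downregulated. Of the downregulated mRNAs, BraA10g028220.3C (expansin-A2) had 873, 717 and 836 counts in Nor and 0 counts in each Ver library. The most abundant of the list, both described as mannan endo-1,4-beta-mannosidase 7, went opposite ways and were not called. BraA07g017530.3C had a log2FC of 0.62 (SE 0.04) and BraA09g009580.3C of -0.41 (SE 0.04). BraA06g031870.3C (TRANSPARENT TESTA GLABRA 1) and BraA10g027450.3C (TRANSPARENT TESTA 12-like) hardly changed (0.0004 and 0.01). Anthocyanidin reductase, a seed coat marker, had 0 counts in 5 of 6 libraries and was not tested. The part of these tissues in the storage protein result was not tested.

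**Figure D5:**
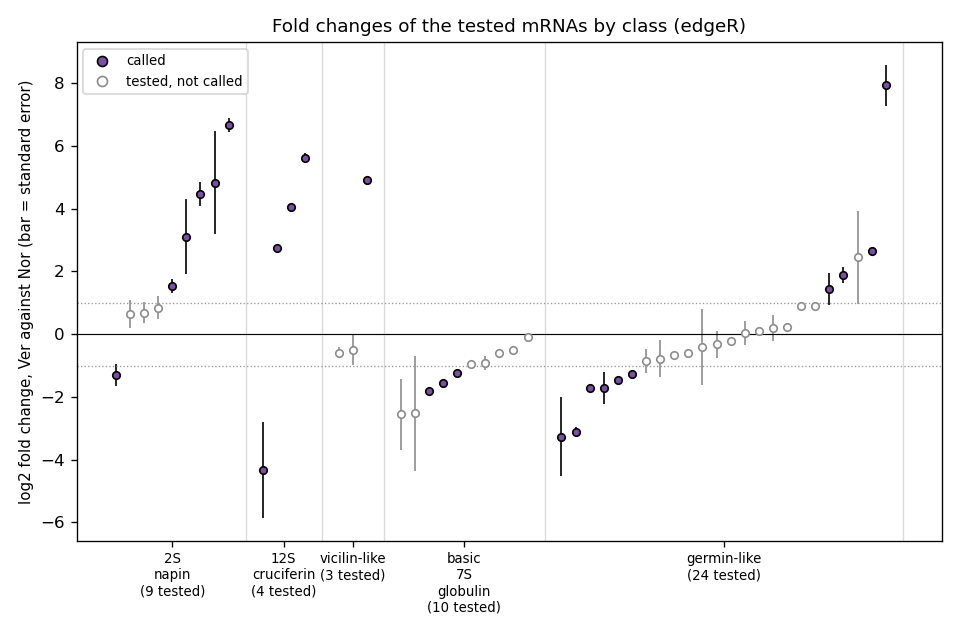
Log2 fold change of Ver against Nor (vertical axis, with standard error bars) for the 50 tested storage and germin-like mRNAs, grouped by class and ordered within it, with filled points for called mRNAs and dotted lines at 1 and -1. Napins and cruciferins reach 6.66 and 5.61, all basic 7S globulins lie below 0, and germin-like mRNAs spread to both sides. The highest germin-like point is BraA09g019180, which had 0 counts in Nor, so its fitted value is no measured fold.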

How the data were processed

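Total RNA of 3 Nor and 3 Ver samples was sequenced from both ends after ribosomal RNA removal, with strand kept. Trimming by the authors used Cutadapt, alignment to the B. rapa v3.0 genome used Bowtie2 and TopHat2, and transcripts were assembled and estimated with StringTie and Ballgown. HISAT2 is also named in the submitters' processing notes. The deposited estimated counts per transcript are whole numbers without normalization, and how they were derived is not given in the sources used here. FPKM was used as the authors deposited it, with 0 written as 0.0001. The SRPBM values of circRNAs, a normalized signal deposited by the authors, were not used, and their junction read counts were deposited without normalization. The columns of per-sample values all belong to the 6 samples. No sequences of the members were analysed here.

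The counts of all transcripts were filtered by filterByExpr, scaled by TMM and tested with the quasi-likelihood F test of edgeR 4.0.16 under R 4.3.3, without a term for the replicate, as the study's methods name none. The standard error is the absolute log2 fold change divided by the square root of F. The p-values of transcripts were adjusted over the 49351 transcripts tested, and those of gene sums over the assembled genes tested. With 0 or few counts in a group, a floor of 3 counts per library was used.

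Alternatives were RLE factors, DESeq2 1.42.0, library totals alone, limma 3.58.1 on log2(FPKM + 1) and log2(FPKM + 0.1), a mean CPM of at least 1, no filter, sums over the assembled gene, reference mRNAs only, a robust fit, an adjusted p, a replicate block and each library left out. Counting the sinapine esterases as storage mRNAs, and leaving out the basic 7S globulins, were added after seeing the data. Figures were drawn with matplotlib 3.10.9 and tables handled with Python 3.11 and pandas 2.3.3.

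The members and lists were chosen with earlier results of these data known. The mRNAs named by rule are the 3 most abundant of each class (vicilin-like and basic 7S globulin mRNAs as 1 class) and, in the storage and in the germin-like mRNAs each, the 6 largest rises and 6 largest falls called with at least 10 counts on average in the higher group and no overlap of libraries. The other members are named to give their values, and assembled isoforms were chosen after their values were seen. P-values measure the spread between dishes.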

Additional observations from a re-analysis of the deposited data

How the results depend on the processing

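With 9 storage mRNAs called higher and 5 lower and 4 germin-like mRNAs called higher and 6 lower, the counts moved by over 1.5 times in these cases. Limma on log2(FPKM + 1) gave 3 storage mRNAs lower and 2 germin-like mRNAs higher, and a filter at a mean CPM of 1 gave the same counts, 3 and 2. The replicate block gave 2 germin-like mRNAs higher, beside 4 lower and 7 storage mRNAs higher and 4 lower. Same-numbered Nor and Ver libraries did not deviate together (r of -0.0039, -0.0039 and 0.0118 over 28547 transcripts), so the numbers were not taken as pairs. Leaving out the basic 7S globulins, an alternative chosen after seeing the data, left 2 storage mRNAs lower. Leaving out 1 library at a time, 7 to 9 storage mRNAs were higher and 4 to 8 lower, and 3 to 4 germin-like mRNAs were higher and 4 to 6 lower, with the 8 reached without Ver 3. Of 479 fold changes of 27 named mRNAs under the alternatives, 0 changed direction and 50 fell short of the thresholds that the main analysis had passed. These 50 belong to 8 mRNAs (BraA01g017860.3C, BraA01g020050.3C, BraA01g042240.3C, BraA02g008990.3C, BraA03g044770.3C, BraA03g053570.3C, BraA09g019180.3C and BraA10g002460.3C), and the cause was not tested. The highest count of these 8 mRNAs in a Nor library was 129, but in Ver BraA01g017860.3C reached 2706. Those that fell had their lower values in Ver. The Ver maximum was 13 for BraA10g002460.3C, 26 for BraA01g042240.3C, 12 for BraA02g008990.3C and 59 for BraA01g020050.3C. The call of BraA04g011460.3C was kept in 18 of 18 alternatives. Its Nor maximum was 77, and its Ver libraries lay between 194 and 243.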

Other observations

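Of 976 circRNAs, 7 overlapped a storage or germin-like gene, and their junction reads were few. A circRNA assigned to the napin gene BraA01g017840.3C (A01, 9468909 to 9469126) had 5, 0 and 0 junction reads in Nor, by library number, and 0, 0 and 2 in Ver. It is listed on the minus strand and its gene on the plus strand. A circRNA listed as intergenic joins the start of the same napin to the next napin of the run (A01, 9468909 to 9476074), with 3, 0 and 0 reads in Nor and 0, 0 and 2 in Ver. It too is listed on the minus strand, opposite to the napins of the run. At the vicilin-like gene BraA01g031520.3C a circRNA listed as intergenic (A01, 21411261 to 21411405) had 0 reads in the Nor libraries and 2, 0 and 3 in Ver. At napin BraA03g008390.3C the reads were 4, 0 and 4 in Nor and 0 in Ver, and at napin-B BraA01g020050.3C they were 2, 0 and 5 in Nor and 0 in Ver. The circRNAs at these napins are listed as intergenic and on the plus strand, while both genes are on the minus strand. The germin-like BraA02g008980.3C and cruciferin BraA10g002460.3C each had a circRNA in Nor 2 only, with 2 reads and 1 read. Linear counts of the first napin were 126, 172 and 153 in Nor and 14266, 16166 and 16281 in Ver.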
